A study of Homo sapiens with 12 samples.

Results

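The 9 genes described here are known from endothelial cells, which line blood vessels, and were followed in MDA-MB-231, a widely used cell line from a human triple-negative breast cancer. They are ESAM, EGFL7, TIE1, TEK, CDH5, ROBO4, ICAM2, CLDN5 and ENG. Each was found by its symbol, as 9 of the 60234 rows of the deposited count table. The series compared a fast population, which was captured by the path its cells took, with the parental population of the same line, which carries no treatment label. There were 12 RNA-seq libraries in 2 batches, with 3 fast and 3 parental libraries per batch. The series calls the libraries technical replicates and names 2 biological replicates without tying them to libraries, and nothing says that libraries came from separate captures or cultures. The p-values below therefore measure only the spread between these libraries, which may be technical.

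These genes encode parts of the machinery with which endothelial cells hold together and sense their surroundings. CDH5 (VE-cadherin), CLDN5, ESAM and ICAM2 are adhesion or junction proteins of endothelial contacts. TIE1 and TEK are the receptor tyrosine kinases of the angiopoietin system, in which the angiopoietins bind TEK and TIE1 modulates its signal. ENG (endoglin) is a co-receptor for ligands of the TGF-beta and BMP family, ROBO4 is the endothelial member of the Roundabout receptors, and EGFL7 is a protein that endothelial cells secrete into the matrix. Transcription factors of the ETS family, which bind around a GGAA core, are known regulators of many endothelial genes.

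The set did not move as 1 block. ESAM, EGFL7, ROBO4 and ENG were higher in fast cells in each batch, TIE1 and ICAM2 were lower in each batch, CLDN5 was scarce and did not pass the test, and TEK and CDH5 were close to absent in both populations. In edgeR's quasi-likelihood test, 4 of the 9 genes were thus called higher in each batch, where 29.0% of all tested genes were called higher in batch 1 and 27.4% in batch 2. Lower calls were made for 2 of the 9, beside 27.1% of tested genes in batch 1 and 28.6% in batch 2. With calls this common, the count says little about the set, and the size of each change and its repeat across batches are given below. Past the low-count filter were 7 of the 9 genes. Over both batches the same counts of 4 higher and 2 lower stood beside 31.9% and 31.5% of all tested genes (63.4% called in all). Of the 9, 3 were called and at least 2-fold higher (3.98% of tested genes) and 1 at least 2-fold lower (6.92%). ESAM, at 2.06-fold, was just above that limit, and just below it with library totals only (log2 fold change 0.992). The change differed between batches for 3 of the 9, TIE1, ROBO4 and ENG, all with a lower value in batch 2, where 3.65% of tested genes were called lower, 1.73% higher and 5.38% in all. That split over all genes, 393 higher and 827 lower, depended on the scaling and was 575 and 522 with RLE size factors.

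**Figure D1:**
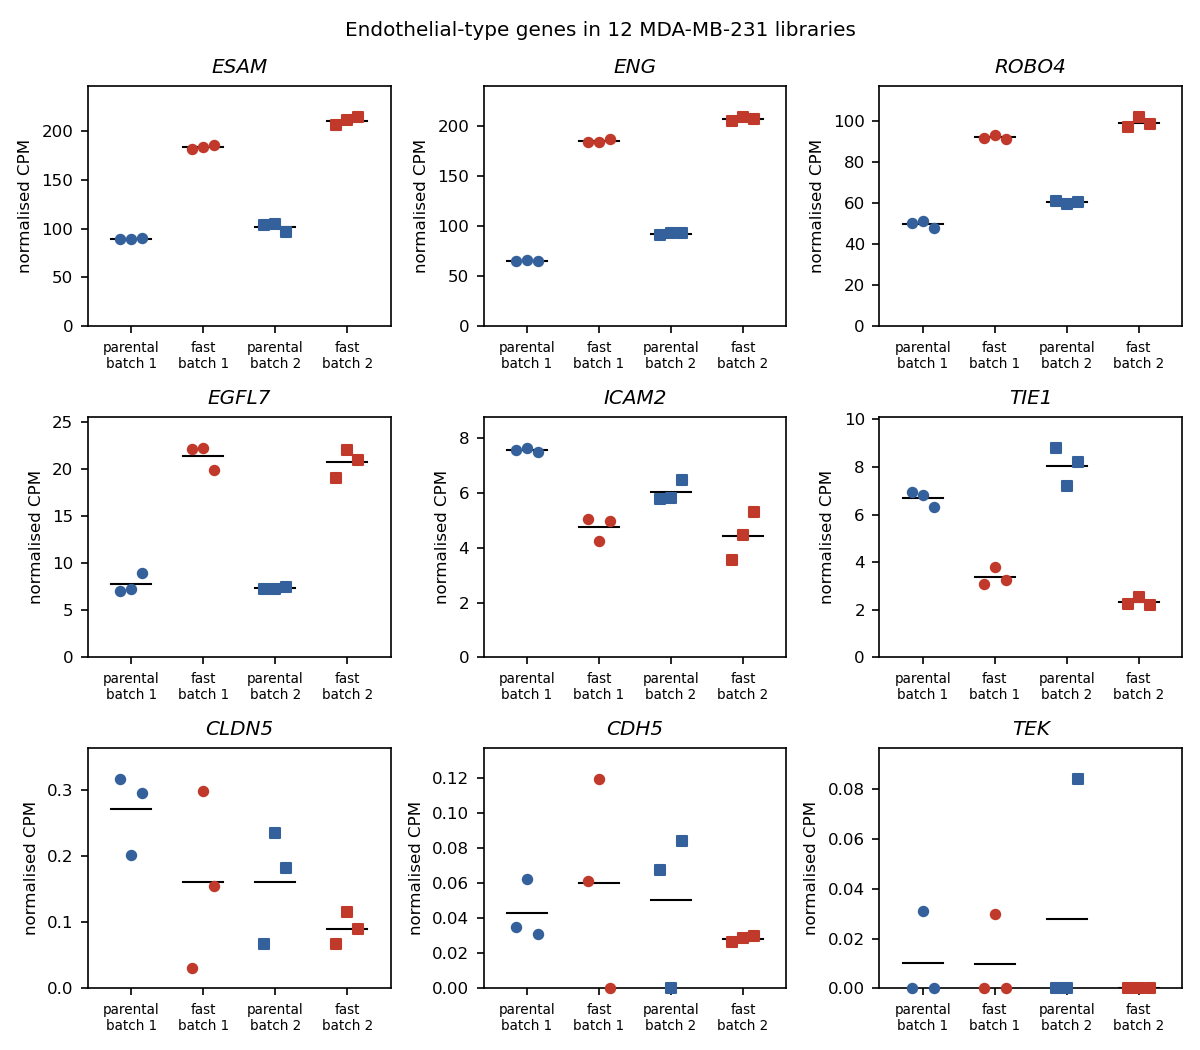
Normalised CPM (vertical axes, each from 0) of the 9 genes in each library, with parental cells in blue, fast cells in red, batch 1 as circles, batch 2 as squares and the mean of 3 libraries as a line. ESAM, ENG, ROBO4 and EGFL7 sit higher in every fast library than in any parental library, ICAM2 and TIE1 sit lower, and CLDN5, CDH5 and TEK overlap at 0.316 CPM or less.

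Libraries held 53267145 to 75944907 counts, so that 1 CPM stood for 53.3 to 75.9 counts and the limit set by a count of 0 (3 counts) was 0.0395 to 0.0563 CPM. CPM, a count scaled to the library's total, is adjusted here by TMM normalization. The line's markers VIM, KRT8, KRT18, CD44 and AXL averaged 306 CPM or more in either population. Of the others, ERBB2 averaged 59.0 CPM in the fast and 62.4 CPM in the parental population and EPCAM 11.2 CPM in both, ESR1 averaged 0.139 CPM in both, CDH1 had 11 counts in all, and PGR, the progesterone receptor gene, rose from 0.476 to 2.05 CPM. The endothelial identity that the names of the set imply was then held against 8 defining endothelial markers, of which CDH5 is also in the set. ERG and CLEC14A had no count in any of the 12 libraries, EMCN had 6 counts in all, CDH5 had 36, VWF had 104 and SOX18 had 279, and PECAM1 was not analysed here. KDR, the main VEGF receptor of endothelium, had 7620 counts and made up most of the list's summed level, which was 9.98 to 12.5 CPM in fast and 8.12 to 10.6 CPM in parental libraries. Apart from KDR, the matched markers averaged 0.457 CPM or less in either population. In bulk RNA, fewer cells with a transcript and less of it per cell cannot be told apart.

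Compared per kilobase of exon, ESAM was the most abundant of the set, at 67.5 ± 5.12 CPM per kb in fast and 32.8 ± 2.52 in parental cells (SD, n = 6 libraries each, exon lengths from GENCODE 29). ENG followed at 49.8 ± 3.18 and 20.1 ± 3.77, ROBO4 at 13.6 ± 0.592 and 7.85 ± 0.845, and EGFL7 at 8.24 ± 0.513 and 2.96 ± 0.286. ICAM2, at 1.42 ± 0.201 and 2.10 ± 0.272, and TIE1, at 0.425 ± 0.0936 and 1.10 ± 0.139 CPM per kb, came next. CLDN5, CDH5 and TEK were all under 0.1 CPM per kb in every library. The order was the same in both populations. Neighbours in it did not overlap from library to library, except CDH5 with TEK in either population and CLDN5 with CDH5 in fast cells.

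Among the adhesion genes, ESAM (ENSG00000149564, chromosome 11), an immunoglobulin-type protein of tight junctions, showed nearly the same rise in each batch. In batch 1 it stood at 182, 184 and 186 CPM in the fast and 89.0, 89.1 and 90.5 CPM in the parental libraries. In batch 2 it stood at 206, 211 and 214 CPM in the fast and 104, 105 and 96.9 CPM in the parental libraries. Every fast library was above every parental library, and both populations were somewhat higher in batch 2. The log2 fold change was 1.04 ± 0.03 SE in batch 1 and 1.05 ± 0.03 SE in batch 2 (edgeR adjusted p = 4.75e-28 and 2.35e-28), and the difference between batches was 0.01 ± 0.05 SE (adjusted p = 0.951).

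ICAM2 (ENSG00000108622, chromosome 17), a ligand of the leukocyte integrin LFA-1, went the other way. Fast libraries of batch 1 had 5.05, 4.26 and 4.97 CPM against 7.58, 7.64 and 7.52 CPM in parental ones, and in batch 2 the values were 3.54, 4.49 and 5.33 against 5.80, 5.81 and 6.48 CPM. The ranges did not overlap in either batch, though the gap in batch 2 was narrow. Log2 fold changes were -0.67 ± 0.11 SE and -0.44 ± 0.11 SE (edgeR adjusted p = 1.85e-06 and 0.000894). The batch 2 call was lost without fast batch 2 replicate 1, the lowest library (log2 fold change -0.27, edgeR adjusted p = 0.0501). ICAM2 overlaps exons of PRR29, listed in the count table as C17orf72, on the opposite strand, and C17orf72 fell alongside it (log2 fold change -0.69 ± 0.10 SE over both batches). No source used here gives whether counting used strand, so reads of the overlapping genes cannot be told apart.

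CLDN5 (ENSG00000184113, chromosome 22), the claudin of the blood-brain barrier, had 2 to 20 counts per fast and 4 to 19 per parental library. Its levels were 0.0306, 0.298 and 0.154 CPM in fast and 0.316, 0.201 and 0.295 CPM in parental cells of batch 1, and 0.0665, 0.115 and 0.0891 against 0.0674, 0.235 and 0.182 CPM in batch 2. The groups overlapped in both batches. Log2 fold changes of -0.73 ± 0.59 SE and -0.86 ± 0.65 SE did not pass (edgeR adjusted p = 0.302 and 0.268), nor did the value over both batches (-0.79 ± 0.43 SE, adjusted p = 0.111). Without fast batch 1 replicate 2, whose value was the highest of the fast libraries, that last value was -1.16 and passed (edgeR adjusted p = 0.0366). Without fast batch 1 replicate 1, the lowest of them, it was -0.527 and did not pass (edgeR adjusted p = 0.292).

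CDH5 (ENSG00000179776, chromosome 16), the cadherin of endothelial adherens junctions, had 0 to 8 counts in any library and 18 counts in each population. Fast libraries had 4, 8 and 0 counts in batch 1 and 2, 2 and 2 in batch 2, and parental libraries had 2, 4 and 2, then 4, 0 and 6. No group stood apart, and the ratio of normalised totals was 0.981 (95% Poisson interval 0.482 to 2.00). All 12 counts of CDH5 and all 12 of TEK were even numbers or 0. Even values made up 64.1% to 71.8% of the rows holding 1 to 10 counts in a library, so that counts at this depth may not be independent and Poisson intervals, which cover counting error only, may be too narrow. On counts halved and rounded up, a setting chosen after seeing the data, the interval for CDH5 was 0.345 to 2.79.

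The angiopoietin receptors TIE1 and TEK were unlike each other in level. TIE1 (ENSG00000066056, chromosome 1) had 3.07, 3.78 and 3.24 CPM in fast and 6.94, 6.80 and 6.30 CPM in parental libraries of batch 1. In batch 2 it had 2.22, 2.55 and 2.21 CPM in fast and 8.78, 7.20 and 8.19 CPM in parental libraries. Fast libraries were below parental ones throughout, and the distance was wider in batch 2, where fast cells were lower and parental cells higher than in batch 1. The fall was 1.98-fold in batch 1 (log2 fold change -0.99 ± 0.11 SE, edgeR adjusted p = 4.10e-10) and 3.45-fold in batch 2 (-1.79 ± 0.12 SE, 9.95e-18), and the difference between batches passed its own test (-0.80 ± 0.16 SE, adjusted p = 0.000959). TEK (ENSG00000120156, chromosome 9), also known as TIE2, had counts in 3 of 12 libraries, namely 2 in fast batch 1 replicate 2, 2 in parental batch 1 replicate 2 and 6 in parental batch 2 replicate 3. This came to 2 counts in fast and 8 in parental cells, a ratio of 0.245 with a 95% Poisson interval of 0.0254 to 1.23, which does not separate the populations at this depth.

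ENG (ENSG00000106991, chromosome 9) rose in each batch, and by unequal amounts. It stood at 184, 184 and 187 CPM in fast and 65.4, 66.1 and 65.8 CPM in parental libraries of batch 1, and at 205, 209 and 207 against 91.3, 93.5 and 93.5 CPM in batch 2. Replicates within a group lay close together, and the parental level differed more between batches than the fast level did. The rise was 2.81-fold in batch 1 (log2 fold change 1.49 ± 0.03 SE, edgeR adjusted p = 1.52e-34) and 2.24-fold in batch 2 (1.16 ± 0.03 SE, 7.67e-31). The difference between batches was -0.33 ± 0.05 SE (adjusted p = 1.42e-06). An antisense gene that shares 313 exon bases with ENG, RP11-228B15.4 in the count table, rose from 12.9 to 30.8 CPM (1.26 ± 0.05 SE on the log2 scale), with the same limit on strand as for ICAM2. ENG had 109124 counts over the 12 libraries and the antisense gene 17333.

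ROBO4 (ENSG00000154133, chromosome 11) had 92.1, 93.6 and 91.5 CPM in fast and 50.2, 51.3 and 48.1 CPM in parental libraries of batch 1. In batch 2 it had 97.5, 102 and 98.8 CPM in fast and 61.1, 59.5 and 60.9 CPM in parental libraries. The populations were well apart in both batches, with log2 fold changes of 0.89 ± 0.04 SE and 0.72 ± 0.04 SE (edgeR adjusted p = 6.27e-24 and 5.96e-21). The smaller rise in batch 2 gave a difference of -0.17 ± 0.05 SE (edgeR adjusted p = 0.0432), a call that was lost in 6 of 7 alternative settings and on leaving out 10 of the 12 libraries, each in turn. Antisense genes RP11-664I21.5 and RP11-664I21.6, which share 744 and 448 exon bases with ROBO4, rose with it (log2 fold change 0.83 ± 0.08 SE and 0.85 ± 0.07 SE), at under 10 CPM. The limit on strand given for ICAM2 holds here too. The antisense genes had 3979 and 5419 counts over the 12 libraries and ROBO4 had 59684.

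EGFL7 (ENSG00000172889, chromosome 9) had the highest log2 fold change of the set over both batches, while in batch 1 its value (1.46) and that of ENG (1.49) lay within 1 SE of each other. It stood at 22.1, 22.2 and 19.9 CPM in fast and 7.0, 7.24 and 9.01 CPM in parental libraries of batch 1, and at 19.1, 22 and 21 against 7.30, 7.31 and 7.45 CPM in batch 2. The lowest fast library was more than 10 CPM above the highest parental one. The rise was 2.76-fold and 2.81-fold in the 2 batches (log2 fold change 1.46 ± 0.08 SE and 1.49 ± 0.08 SE, edgeR adjusted p = 3.89e-20 and 1.56e-20), and the batches differed by 0.03 ± 0.11 SE (adjusted p = 0.944). EGFL7 is the host gene of the endothelial microRNA miR-126. The MIR126 row of the table held 5 counts over the 12 libraries, and the mature microRNA was not measured by these libraries.

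**Figure D2:**
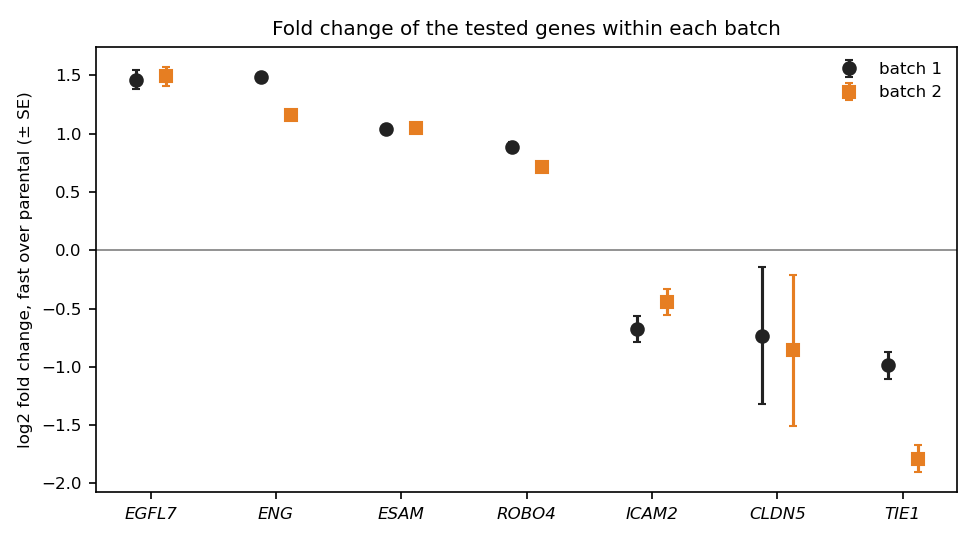
Log2 fold change of fast over parental cells (vertical axis, ± SE) of the 7 tested genes in batch 1 (black circles) and batch 2 (orange squares), from a fit with 3 libraries per group. EGFL7 and ESAM have matching values in the batches, ENG is lower in batch 2 (1.16 against 1.49), TIE1 is farther below 0 in batch 2 (-1.79 against -0.99), and the bars of CLDN5 are the longest.

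Over both batches, the log2 fold changes of EGFL7 (1.48 ± 0.06 SE), TIE1 (-1.38 ± 0.12 SE), ENG (1.32 ± 0.05 SE) and ESAM (1.04 ± 0.03 SE) were larger in size than those of 94.3%, 93.6%, 93.1% and 89.4% of the 22668 genes tested. ROBO4 (0.80 ± 0.03 SE) and ICAM2 (-0.56 ± 0.09 SE) exceeded 83.5% and 71.8%. All 6 fast libraries lay above all 6 parental libraries for 4 of the 9 genes, as for 18.8% of tested genes, and below them for 2, as for 19.6%.

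Start-region sequences are shown for the called genes that have an entry in the RefSeq table (build GRCh38.p14, another build than that of the counts), since ETS motifs there are a known feature of endothelial promoters. Entries were found for 5 of the 9 genes. Each line gives the 250 bases before a start in the direction of the gene, 5′ to 3′, and capitals mark AGGAAG or its reverse complement, an ETS-type motif. EGFL7 has starts at 2 places in the table (chr9:136658606-136658855 and chr9:136662666-136662915, plus strand). ENG lies on the minus strand (chr9:127854659-127854908), as does ROBO4 (chr11:124897866-124898115), and TIE1 on the plus strand (chr1:43300732-43300981).
EGFL7 upstream start: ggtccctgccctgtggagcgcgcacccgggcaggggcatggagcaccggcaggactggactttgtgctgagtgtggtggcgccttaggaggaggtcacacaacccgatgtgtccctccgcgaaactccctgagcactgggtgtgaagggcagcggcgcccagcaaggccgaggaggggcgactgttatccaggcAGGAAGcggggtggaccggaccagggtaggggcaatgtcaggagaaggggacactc
EGFL7 downstream start: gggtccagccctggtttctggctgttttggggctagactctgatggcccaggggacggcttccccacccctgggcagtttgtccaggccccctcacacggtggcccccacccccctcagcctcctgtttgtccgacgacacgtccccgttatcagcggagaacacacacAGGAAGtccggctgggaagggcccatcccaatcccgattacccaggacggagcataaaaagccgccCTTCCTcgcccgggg
ENG: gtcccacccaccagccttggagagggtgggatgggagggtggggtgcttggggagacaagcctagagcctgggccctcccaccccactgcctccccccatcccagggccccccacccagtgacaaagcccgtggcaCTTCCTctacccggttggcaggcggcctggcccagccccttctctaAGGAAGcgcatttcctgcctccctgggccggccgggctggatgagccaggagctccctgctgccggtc
ROBO4: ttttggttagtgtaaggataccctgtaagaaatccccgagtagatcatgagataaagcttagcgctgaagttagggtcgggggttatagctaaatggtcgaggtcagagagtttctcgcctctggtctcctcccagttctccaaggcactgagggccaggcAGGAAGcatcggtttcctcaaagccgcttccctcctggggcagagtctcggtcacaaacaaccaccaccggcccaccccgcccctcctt
TIE1: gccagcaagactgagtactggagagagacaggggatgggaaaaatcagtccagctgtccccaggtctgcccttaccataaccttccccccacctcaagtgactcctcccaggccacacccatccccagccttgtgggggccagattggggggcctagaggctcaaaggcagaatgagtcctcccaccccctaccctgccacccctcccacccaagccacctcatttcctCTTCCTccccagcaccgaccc

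AGGAAG, searched on both strands, was present in each of these 5 regions, in genes that rose and in TIE1, which fell. Of 35116 regions of the same length in the table, 28.7% held it. It lay 56 bases before the upstream EGFL7 start, 81 and 15 bases before the downstream one, 68 and 114 before that of ENG, 89 before that of ROBO4 and 21 before that of TIE1, counted to the first base of the match. The other ETS form searched, CCGGAA, which shares only the GGAA core with the first, was in none of them and in 14.5% of all regions. CACCC, a KLF-type motif, was in all 5 regions and in 54.7% of all regions in the table. The GATA-type motif AGATAA was in that of ROBO4 and in 9.17% of all. Of the SOX-type motifs, ACAAAG was in those of ENG and of the upstream EGFL7 start and in 13.7% of all, and the other one searched, ACAATG, was in none of the 5 and in 9.29% of all. The TATA box motif TATAAA was likewise in none of the 5 and in 10.7% of all. TEK, whose 2 start regions in the table are not shown, had AGGAAG in neither. In base composition the regions ran from 54.8% G or C in ROBO4 to 69.6% in ENG, with a median of 58% over the table. These are matches of letters in a window and were not tested as binding sites.

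Position along the chromosome was examined next, with gene order taken from GENCODE 29 by gene ID. The 5 nearest tested genes on each side served as neighbours. EGFL7 (1.48) and ESAM (1.04) lay above all 10 of their neighbours in log2 fold change, whose medians were 0.20 and 0.03. ENG (1.32) also lay above all of its neighbours, but these had risen as well, 8 of 10 called higher, with a median of 0.69. They include the antisense gene named above (1.26), AK1, an adenylate kinase (1.0), the transcription kinase CDK9 (0.80) and the folate enzyme gene FPGS (0.83). TIE1 (-1.38) stood in a stretch where 8 of 10 neighbours were called lower (median -0.46), among them the glucose transporter gene SLC2A1 (-0.46) and CDC20 (-0.70), a mitotic activator. The median was -0.54 in batch 1 and -0.43 in batch 2, beside -0.99 and -1.79 for TIE1. RP1-92O14.3, right beside TIE1, lay below it over both batches (-1.69), with -0.89 in batch 1 and -2.92 in batch 2. Its mean was only 0.205 CPM. ICAM2 (-0.56) and CLDN5 (-0.79) had neighbour medians of 0.11 and 0.39. Of the 10 neighbours of ICAM2, 5 were called higher and 3 lower, namely C17orf72 (-0.69), SNORA76 (-0.79) and SNORD104 (-0.69). The part of these neighbourhoods in the members' changes was not tested.

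ESAM and ROBO4 are themselves close, with 6 tested genes between them. The genes in between were mixed. RP11-677M14.3, next to ESAM, had a log2 fold change of 0.83 at a mean of 1.86 CPM. ROBO3, a Roundabout receptor of commissural axons that lies beside ROBO4, fell (log2 fold change -0.60), and MSANTD2 had -0.13. On the far side of ROBO4 the sugar-phosphate transporter gene SLC37A2 rose (1.12), and beyond ESAM VSIG2, another immunoglobulin-type membrane protein, had 1.05 in batch 1 and 0.38 in batch 2. Neighbours named here and above were chosen after their values were seen.

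**Figure D3:**
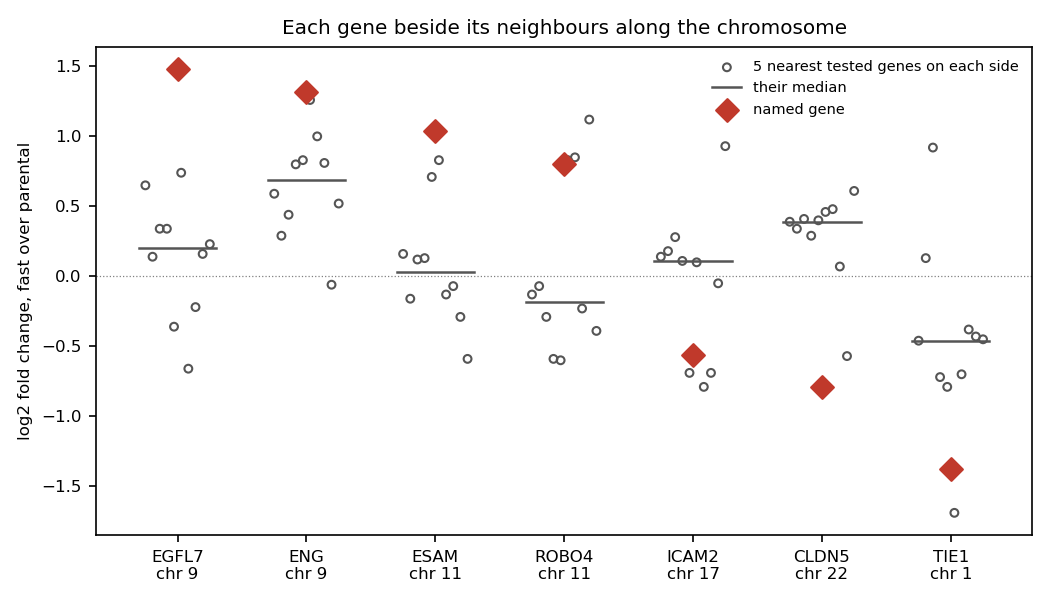
Log2 fold change of fast over parental cells over both batches (vertical axis) for each tested gene of the set (red diamond), the 5 nearest tested genes on each side along the chromosome in their order (open circles) and the median of those 10 (line). ENG and TIE1 lie on the same side of 0 as the median of their neighbours (0.69 and -0.46), while the medians of ESAM and EGFL7 are 0.03 and 0.20.

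Other endothelial genes went in both directions. Of 40 further surface and secreted endothelial markers, 39 were matched, 21 could be tested, 6 were called higher in each batch and 4 lower in each batch, beside 23.0% of all tested genes for either direction. The median log2 fold change of the 21 was 0.06, against 0.01 over all genes. THBD (thrombomodulin), an anticoagulant receptor, fell from 92.7 to 59.6 CPM and the semaphorin and VEGF co-receptor NRP2 from 22 to 9.58 CPM. APLN, the peptide ligand of the apelin receptor, rose from 11.5 to 22.6 CPM. KDR rose less, from 8.60 to 10.8 CPM (1.26-fold). ESM1 (endocan), named after its values were seen, fell from 1.46 to 0.0201 CPM. The adhesion receptors SELE, SELP, LYVE1 and PDPN had at most 2 counts in all.

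Of 27 transcription factors known from endothelium, 22 were tested, 9 were called higher and 6 lower in each batch (median log2 fold change 0.00), again beside 23.0% of all tested genes for either direction. MEF2C rose 4.06-fold, from 2.54 to 10.4 CPM (2.02 ± 0.08 SE on the log2 scale) and LYL1 from 0.527 to 2.21 CPM (2.06 ± 0.15 SE). LMO2, a bridging protein of the same hematopoietic and endothelial complexes as LYL1, fell from 5.25 to 1.25 CPM (-2.06 ± 0.11 SE). PROX1, the regulator of lymphatic identity, rose 2.02-fold at under 2 CPM. ETS factors of the list, also named after their values were seen, differed. ETS1 averaged 407 CPM in the fast libraries against 417 CPM in the parental ones (log2 fold change 0.02 and -0.09). It was called, as lower, in batch 2 but not in batch 1, and so was ETS2. In each batch ELK3 was called higher (172 to 218 CPM), as was ETV6 (21.3 to 24.9 CPM). FLI1 was called lower in each batch (0.34 to 0.0443 CPM), and ETV2 was called in neither. ERG and SOX17 had no count.

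**Figure D4:**
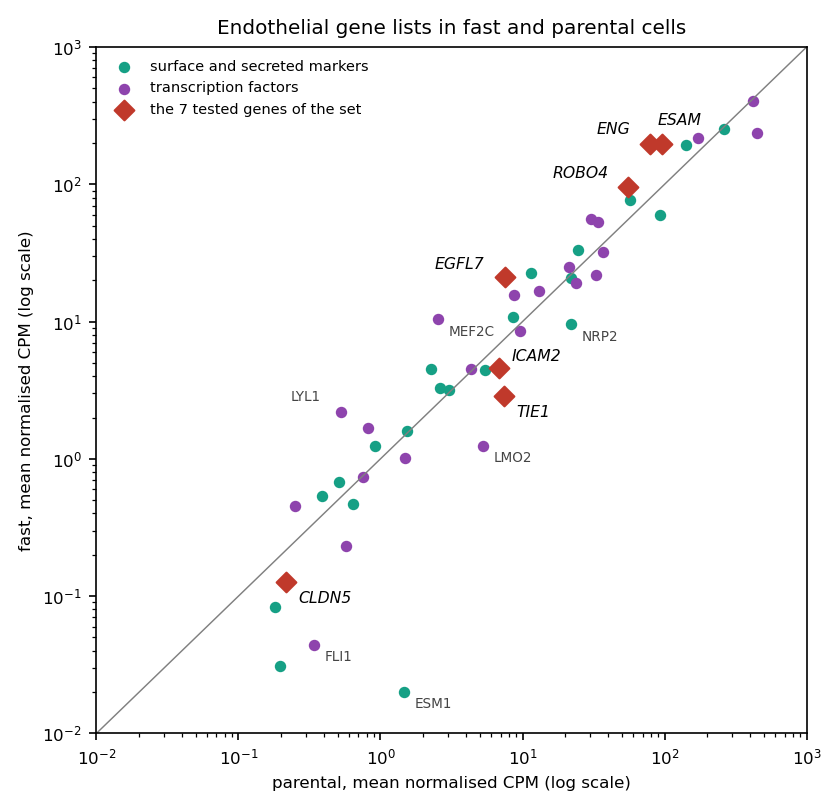
Mean normalised CPM in parental (horizontal) and fast cells (vertical), both on log scales, for tested genes of the endothelial surface and secreted list (green), the transcription factor list (purple) and the 7 tested genes of the set (red diamonds), with equal levels on the grey line. Points lie on both sides of the line. ESAM, ENG, ROBO4 and EGFL7 are above it, and ICAM2 and TIE1, like LMO2, NRP2 and ESM1, are below it.

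Partners of the 9 proteins were listed by pathway, and each count of calls in each batch stands beside the same 23.0% of all tested genes for higher and 23.0% for lower. On the angiopoietin side, ANGPT1, the main ligand that activates TEK, fell 2.66-fold, from 5.44 to 2.06 CPM (-1.41 ± 0.10 SE on the log2 scale, edgeR adjusted p = 1.05e-14). ANGPT2 averaged 0.838 CPM in the fast against 0.656 CPM in the parental population and did not pass (edgeR adjusted p = 0.114). ANGPT4, at under 0.3 CPM, was called lower in each batch (log2 fold change -2.28 ± 0.47 SE over both). PTPRB, a phosphatase that acts on TEK and VE-cadherin, had -0.20 in batch 1 and -0.56 in batch 2. It was called lower in batch 2 but not in batch 1. Of the 9 tested genes listed beside the receptors themselves, 1 was called higher and 2 lower in each batch.

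For endoglin, the endothelial type I receptor ALK1, encoded by ACVRL1, had 21 counts in all and its ligand gene GDF2 (BMP9) had none. The receptors that endoglin also joins were present. TGFBR2 averaged 145 CPM in the fast against 153 CPM in the parental population, and BMPR2 averaged 48.3 against 44.9 CPM. TGFBR2 was called lower and BMPR2 higher in batch 1 but not in batch 2. Of 20 tested genes of this pathway, 4 were called higher and 5 lower in each batch. The 4, named after their values were seen, were TGFB1 (137 to 175 CPM), TGFB2 (52.8 to 63.5 CPM), MMP14 (638 to 731 CPM) and GIPC1 (193 to 219 CPM). ACVR2B, an activin receptor, fell from 15.5 to 8.97 CPM, SMAD4, the common mediator, from 41.5 to 25.4 CPM, the inhibitory SMAD7 from 11 to 6.66 CPM and SMAD9 from 2.97 to 1.93 CPM.

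While ROBO4 rose, the other Roundabout receptors fell in each batch. ROBO1 went from 66.3 to 46.0 CPM, ROBO3 from 31.5 to 20.9 CPM and ROBO2 from 2.01 to 0.556 CPM, and the ligand SLIT2 from 45.7 to 23.5 CPM (-0.96 ± 0.04 SE on the log2 scale). UNC5B, a receptor reported to bind ROBO4, was under 0.5 CPM. Of 11 tested genes of the pathway, 4 were higher and 4 lower in each batch.

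Among relatives of ESAM, F11R (JAM-A) rose by 0.79 ± 0.05 SE on the log2 scale, from 11.6 to 20.3 CPM, JAM3 had -0.10 (edgeR adjusted p = 0.481) and JAM2 had 76 counts in all. OCLN (occludin), a tight junction protein, rose 1.33-fold, and MAGI1, a scaffold that binds ESAM, fell from 38.2 to 29.0 CPM. Of the 11 tested genes of this list, 5 were higher and 2 lower in each batch. For ICAM2, the beta chain of its receptor LFA-1, ITGB2, rose from 14.4 to 56.3 CPM (1.97 ± 0.04 SE), while the alpha chain ITGAL had 10 counts in all, none of them in a fast library. Of the linkers that tie ICAM proteins to actin, MSN (moesin) fell from 1320 to 783 CPM and RDX (radixin) rose from 98.0 to 130.0 CPM, and of the 8 tested genes of the list 2 were higher and 1 lower in each batch.

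With VE-cadherin itself nearly absent, its catenin partners were abundant. CTNNB1 (beta-catenin) fell from 352 CPM in the parental to 254 CPM in the fast population and CTNNA1 from 699 to 547 CPM, while VCL (vinculin) rose from 335 to 424 CPM and the phosphatase PTPRM from 131 to 191 CPM. CTNND1 (p120 catenin) averaged 128 CPM against 125 CPM in parental libraries (edgeR adjusted p = 0.404), and JUP averaged under 8 CPM. Of 8 tested genes of that list, 2 were higher and 3 lower in each batch. Around EGFL7, NOTCH1, whose signal EGFL7 is known to modulate and which is also its chromosomal neighbour, rose from 52.9 to 67.2 CPM, and RICTOR rose from 45.8 to 72.3 CPM. These were the 2 of 6 tested genes of that list called higher in each batch. NOTCH4 and LOXL2 were called lower and LOX and EGFL8, a relative of EGFL7, higher in batch 1. None of these was called in batch 2.

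Markers of other cells that carry some of the 9 genes differed in level. Of 16 leukocyte markers, 14 had at most 10 counts in any library, 7 had none in any, among them CD3D, CD2 and MS4A1, and PTPRC had 12 counts in all, while CSF1R fell from 1.38 to 0.772 CPM. Their summed level was 1.18 to 1.69 CPM in fast and 1.54 to 2.65 CPM in parental libraries. Platelet and megakaryocyte markers summed to 2.11 to 3.26 CPM in fast and 2.95 to 4.28 CPM in parental libraries, with PF4 at 6 counts and GP9 at none. Of 4 tested, 0 were called higher and 2 lower in each batch, beside 23.0% of all tested genes for either direction. The 2 were TUBB1, which fell from 1.61 to 0.809 CPM, and GP1BA, from 1.10 to 0.493 CPM. GP1BB averaged 0.78 CPM in the fast against 0.567 CPM in the parental population and was called higher in batch 1 only. ITGA2B was called in neither batch. GP1BA, GP1BB and ITGA2B were named after their values were seen. Fibroblast and mural markers summed to 48.7 to 54.9 CPM in fast and 37.1 to 45.2 CPM in parental libraries, with LUM and DCN at none, and here CSPG4 rose (10.6 to 25.9 CPM) and COL1A1 fell (14.2 to 9.32 CPM). Of 2 tested leukocyte markers, 0 were called higher and 1 lower in each batch. Of 6 tested fibroblast and mural markers, 2 were called higher and 2 lower. The part of all these markers in the results above was not tested.

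The genes whose log2 CPM followed a member most closely over the 12 libraries were sought among 13667 genes at 1 CPM or more. Genes with clone-type or antisense names were left out beforehand. The antisense genes that overlap ENG and ROBO4 were therefore not compared. Within that selection ROBO4 and ENG were each other's closest match (Pearson r = 0.998), both followed by PRR13 (0.997). For ESAM they were AARS (0.999), CHRNB1 (0.998) and MPP4 (0.997), and for EGFL7 they were SEMA6B (0.997), SPNS2 (0.995) and CYBA (0.995). TIE1 was matched by EIF4G1 (0.989), TESK2 (0.987) and PARM1 (0.987), and ICAM2 by its overlapping gene C17orf72 (0.963), NEK1 and TSG101 (0.949 each). The 12 libraries form 4 groups of 3, and the values describe only these libraries.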

How the data were processed

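Per the submitters' processing notes, the authors used Trimmomatic 0.32, STAR 2.3.0e and featureCounts 1.4.4 with hg19 and GRCh37. The deposited table holds raw counts per Ensembl gene, not normalized, made by the authors. The use of strand and the treatment of reads with several matches are not given in the sources used here. All 12 columns were matched to samples by label.

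These counts were fitted in edgeR 4.0.16 under R 4.3.3. TMM scaling was used with its default filter (minimum count 10, minimum total 15), which left 22668 genes, and a robust quasi-likelihood fit over the 12 libraries with 1 mean per population and batch. Contrasts gave the effect within each batch and its difference between batches, and an additive fit with batch as a term gave the value over both. P-values were adjusted by Benjamini-Hochberg over all genes tested, with 0.05 as threshold. Steps were tested on simulated counts. Replicate libraries all differed by more than independent counts would, with dispersion indices of 3.41 to 8.78. Since low counts were mostly even, counts may not be independent, and part of this excess may come from that.

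Genes of the lists were matched by gene ID or symbol. Named are all members, up to 4 members of each list with the largest change among those called alike in both batches at 1 CPM or more, and direct partners, apart from some list members that are not reported here. Neighbours are the 5 nearest tested genes on each side (GENCODE 29, which matched 95.1% of tested genes). Members and lists were chosen with earlier results of these data known. Alternatives were other normalizations, filters, limma-voom 3.58.1, DESeq2 1.42.0, a replicate block, summed libraries, and leaving out each library.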

Additional observations from a re-analysis of the deposited data

Results flagged for a closer look

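The change from parental to fast cells differed between batches for 3 of the 9 genes, by edgeR's test of the difference itself. For TIE1 the log2 fold change in batch 2 was lower than in batch 1 by -0.80 ± 0.16 SE (adjusted p = 0.000959), and it fell in each batch. For ENG the difference was -0.33 ± 0.05 SE (adjusted p = 1.42e-06), and it rose in each batch. For ROBO4 it was -0.17 ± 0.05 SE (adjusted p = 0.0432), and it rose in each batch. The TIE1 and ENG differences kept their call in all 7 alternative settings and with each of the 12 libraries left out (adjusted p of at most 0.011 and 0.000212). The ROBO4 difference kept it with limma-voom (0.048) and was lost in the other 6 settings (0.0513 to 0.407).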

How the results depend on the processing

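In every alternative setting run, ESAM, EGFL7, ROBO4 and ENG stayed called higher and TIE1 and ICAM2 called lower in batch 1, batch 2 and over both batches, including on summed libraries, without a batch term and in fits of 1 batch alone. Leaving out 1 library changed calls of members within a comparison of populations only for ICAM2 in batch 2, so that 1 to 2 members were called lower there, the low value without fast batch 2 replicate 1, and over both batches for CLDN5, so that 2 to 3 were called lower, the high value without fast batch 1 replicate 2. With a replicate block the count of members called for the difference between batches went from 3 to 2, by the loss of ROBO4 (adjusted p = 0.0798), and no other call of a member changed. Same-numbered libraries did not deviate together (correlations of -0.022 to 0.033), which cannot tell whether libraries were paired. The numbers, also used for the replicate block, are those of the sample titles, and some column headers of batch 1 carry other numbers.

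The number of all genes called for the difference between batches moved most. It was 393 higher and 827 lower, against 575 and 522 with RLE size factors, 583 and 549 with library totals only, 966 and 411 without a low-count filter, 740 and 576 among genes averaging 1 CPM or more, 331 and 648 with a replicate block, and 800 and 687 with DESeq2. Leaving out 1 library gave 299 to 819 higher and 337 to 806 lower, with more higher than lower only without any 1 fast library of batch 2 or parental batch 2 replicate 3. The cause was not tested. Depth limits TEK, CDH5 and CLDN5, which had at most 20 counts in any library.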

Other observations

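Both near-absent genes of the set had neighbours with large changes, named here after their values were seen. CDH11, a mesenchymal cadherin gene close to CDH5 on chromosome 16, stood at -7.41 on the log2 scale of fold change (-7.14 in batch 1 and -8.89 in batch 2). Its mean over all libraries was only 1.07 CPM. Of the 10 neighbours of CDH5, 6 were called higher (median 0.26). MOB3B, beside TEK on chromosome 9, had -3.23 at a mean of 1.62 CPM, with a median of -0.05 over the neighbours of TEK.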
